A study of Xenopus laevis with 4 samples.

Results

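The genes described here are those of the centrosome and its centrioles: centrins, CEP and POC proteins, gamma-tubulin and its ring complex, the augmin complex, and the proteins of centriolar satellites and appendages. They were taken by name from the platform annotation, by a fixed set of symbol patterns and single symbols with cep152 left out. No measured value entered that rule. The genes, role groups and lists were, however, chosen with earlier results of these data known, and the shares below are to be read with that limit. The names matched 67 probe sets of 53 genes, 43 of them .L and 10 .S copies, among 11303 genes with 1 symbol. In this allotetraploid frog, .L and .S mark the copies of a gene on the long and short subgenomes, called homeologs. The brightest probe set stood for each gene. Of the 53 genes, 51 passed a filter on low signal and are among the 9380 genes tested, and 2 did not, cep128.L and tubgcp2.L. No probe set named here matched cenpj, cntrob, cntln, hyls1, rttn, ccp110 or cdk5rap2.

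A centriole is a short cylinder of microtubules. A dividing cell keeps a pair of centrioles inside pericentriolar material, where gamma-tubulin ring complexes start new microtubules, and duplicates the pair once in each cycle. A multiciliated cell of the frog skin instead makes many centrioles at once, which dock under the apical membrane as basal bodies and each grow a cilium. Multicilin, a coiled-coil nuclear regulator, starts that programme.

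Presumptive ectoderm of Xenopus laevis was cut from embryos at stage 9 to 10, after injection of synthetic mRNA at the 2-cell stage, and cultured as epithelial explants. The control group had received mRNA for ICD, the usual name of the Notch intracellular domain, which keeps ectoderm from making multiciliated cells. The other group had received ICD and MCI-HGR, in field usage multicilin fused to a hormone-binding domain of the glucocorticoid receptor. Both groups thus carried active Notch, and dexamethasone was given to both at stage 11.5, with RNA taken 5 h later near stage 14. Each group had 2 one-colour Affymetrix arrays, numbered 1 and 2. No array of ectoderm without ICD, or without dexamethasone, was among those analysed here, and the proportion of cells that took up the mRNA is not given in the sources used here.

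Values are MAS5 signals, an intensity per probe set on a linear scale, and the number of arrays limits their precision. The median signal was 45.4 and 44.2 on the ICD and MCI-HGR arrays numbered 1 and 37.6 and 37.1 on those numbered 2. The mesoderm gene tbxt.S read 930.4 and 474.1 on the arrays numbered 1 and 12 and 25.8 on those numbered 2, so arrays of one number resembled each other. Changes are therefore given over both numbers and within each. Multicilin itself (mcidas.S) read 9.7 and 17.1 with ICD alone and 384.2 and 141.5 where MCI-HGR was added, in the direction of the labels. Whether its probe set reads the injected MCI-HGR mRNA was not tested. From here on, rose and fell mean that a gene passed an adjusted p of 0.05 over all genes in a limma fit with the array number as a block and an intensity trend, as 6.72% of all 9380 genes did upward and 3.32% downward. The fit planned first had no block, and the block was planned as an alternative to it. Without the block 0 of all 9380 genes passed, and so 0 genes of any marker list. All 9 tested genes on a list of multiciliated cell markers, mcidas.S among them, rose, and their summed signal went from 2824 and 3104 to 24439.9 and 20863. Much of that sum came from tuba1cl.3.L, which read 2011.9 and 2217.9 with ICD alone and 11202.6 and 11554.8 with MCI-HGR added. The probe set of tuba1cl.3.L is marked as able to bind other transcripts. Keratins and other genes of outer epidermis were bright in both groups, with sums of 41416.5 to 60695 without MCI-HGR and 47697 to 62300.5 with it. The neural list summed to 8525 and 3067 with ICD alone and to 7681 and 3746 with MCI-HGR added, the mesoderm list to 1739 and 149 and to 1051 and 182. In the same order, goblet or secretory markers summed to 227 and 1179 and to 323 and 1118, ionocyte markers to 656 and 618.2 and to 765 and 610.5, basal epidermis to 5039.6 and 5394.6 and to 5067.5 and 5278, and endoderm to 223 and 108 and to 148 and 101.4. Of these lists, 4 of 12 outer epidermal genes, 2 of 9 neural, 1 of 7 mesodermal, 1 of 3 secretory, 1 of 5 ionocyte, 0 of 5 basal and 0 of 3 endodermal genes rose, and 2 of the basal genes fell, counts to be read against those shares. Every tested marker exceeded the highest tag control, a probe set that should find no target in frog RNA, on at least 1 array. Actin control probes toward the middle of the transcript read 0.64 and 0.652 of those at its 3' end with ICD alone, against 0.569 and 0.401 with MCI-HGR added. The part of these differences in the results was not tested, and in such tissue more cells of a type and more RNA per cell cannot be told apart.

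The comparison asked which of these genes respond to multicilin while Notch signalling is held on. Among genes of the centriole itself, 5 of 6 centrin genes (poc5 included) and 9 of 12 genes of the wall, assembly and length rose. These counts include cetn1.L and cep85.S, whose calls were lost in some other settings, and the probe sets of cetn1.L disagreed. The largest rises were those of cetn4.L at 14.1-fold and poc1a.L at 6.62-fold. Of 2 delta- and epsilon-tubulin genes 0 rose. Of 7 augmin genes 0 passed, and of 6 other gamma-tubulin genes 2 rose. The role groups were not tested against each other. In limma's fit with the array number as a block, 24 of 51 genes rose and 0 fell at an adjusted p of 0.05 over all genes, that is 47.1% against 6.72% of all 9380 genes that rose and 3.32% that fell. At an unadjusted p of 0.05 that fit held 25 higher, against 10.8% of all genes, and 4 lower, against 8.20%. The 4 lower were cep63.L, ofd1.L, haus6.L and haus8.L. For cep63.L the log2 difference was 0.041 within number 1 and -0.71 within number 2, so it was lower within number 2 alone. At least 2-fold rises were seen for 14 genes, or 27.5%, against 3.13% of all genes. Without the block limma called 0 of 51 in either direction, as it did for 0% of all genes (smallest adjusted p = 0.0654 for cetn4.L and for poc1a.L), and at an unadjusted p of 0.05 it held 18 higher, against 3.66% of all genes, and 0 lower, against 0.448%. The blocked calls rest on a spread shared between genes of like signal: with a constant prior in place of the intensity trend, poc1a.L alone rose (limma, adjusted p = 0.0362) and cetn4.L came to 0.0501. The p-values cover the spread of these arrays alone, which the labels do not tie to separate clutches.

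The raw signals divided the same way. Both MCI-HGR arrays lay above both ICD arrays for 27 of 51 genes, 52.9%, against 12.6% of all genes, and below both for 5, 9.8%, against 9.52%. Within both array numbers the signal was higher with MCI-HGR for 34 genes, 66.7%, against 32.7% of all genes, and lower for 11, 21.6%, against 29.0%. The median log2 difference of the 51 genes was 0.36, with 0.39 within number 1 and 0.39 within number 2, and that of all genes was 0.0065.

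**Figure D1:**
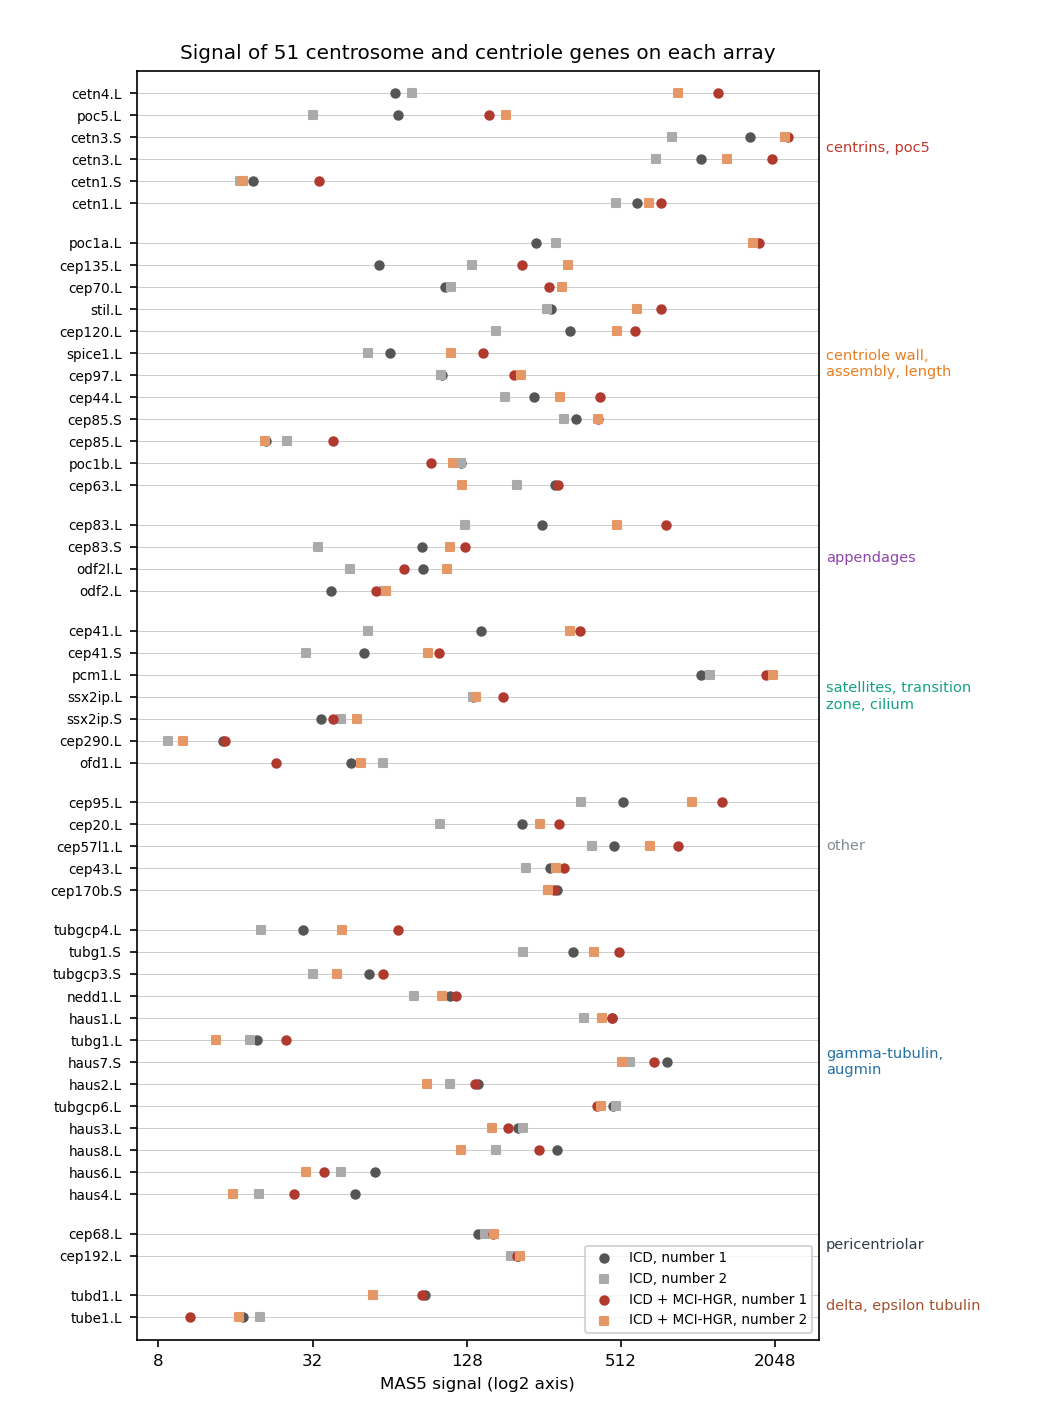
Signal of each of the 51 genes on the 4 arrays, on a log2 axis, with genes grouped by role and ordered by change. Grey points are ICD arrays and red or orange points MCI-HGR arrays, circles for number 1 and squares for number 2. For cetn4.L and poc1a.L the coloured points stand far to the right of the grey ones, and for the augmin genes they lie among them or to their left.

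Centrins are small calcium-binding proteins of the centriole lumen, and poc5 is the centrin-binding protein of the inner centriole wall. Of 6 tested genes, 5 rose and 0 fell, with a median log2 difference of 0.95. cetn4.L (probe set Xl2.50473.1.S1_at) read 67.3 and 78.5 with ICD alone, against 1227.6 and 852 with MCI-HGR added. It was the gene of the whole set with the largest change, 18.2-fold within number 1 and 10.9-fold within number 2. Its log2 difference was 3.81 ± 0.27 (unblocked SE moderated by limma, n = 2 per group), with adjusted p = 5.58e-18 in limma's blocked fit. Without the intensity trend that fit gave cetn4.L an adjusted p of 0.0501. poc5.L (Xl2.19688.1.S1_at) read 68.7 and 32 with ICD alone, against 156.7 and 182.1 with MCI-HGR added. Its groups did not overlap, and it rose 2.28-fold within number 1 and 5.69-fold within number 2 (limma, adjusted p = 2.87e-07 blocked, 0.503 unblocked).

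Both copies of the centrin cetn3 rose as well. cetn3.L read 1050.5 and 702.8 with ICD alone, against 1989.6 and 1328.1 with MCI-HGR added, a rise of 1.89-fold within each number. cetn3.S read 1626.1 and 810.8 with ICD alone, against 2291.5 and 2233.1 with MCI-HGR added, 1.41-fold within number 1 and 2.75-fold within number 2. The probe sets of cetn1 disagreed. cetn1.L, at 592.9 and 486.8 against 732.3 and 658.5, rose 1.29-fold by its brightest probe set (limma, adjusted p = 0.0114 blocked). Another, dimmer probe set of the gene, marked as able to bind other transcripts, read 72.3 and 99.1 against 52.6 and 46.8. It went in the opposite direction and passed the threshold over all probe sets (limma, adjusted p = 0.0469 blocked). The remaining one had a log2 difference of -0.036. The call of cetn1.L was lost after quantile normalization (limma, adjusted p = 0.0634 blocked) and with the mean over its probe sets (0.695), which gave a log2 difference of -0.15. cetn1.S was dim, at 18.8 and 16.7 with ICD alone, against 34 and 17.1 with MCI-HGR added, and did not pass.

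Genes that build the centriole wall, start its assembly or set its length rose in 9 of 12 cases, 6 of them at least 2-fold, and 0 fell; the median log2 difference was 1.06. poc1a.L (Xl2.7007.1.S1_at), a WD-repeat protein of the centriole wall, read 238.2 and 285.1 with ICD alone, against 1772.9 and 1677.6 with MCI-HGR added. The replicates lay close together beside this gap. The log2 difference was 2.73 ± 0.19 (unblocked SE, n = 2 per group), with adjusted p = 4.23e-18 in limma's blocked fit. Without the intensity trend that fit gave poc1a.L an adjusted p of 0.0362. Its paralog poc1b.L went the other way in value, from 121 and 121.3 to 92.6 and 112.8, and missed the threshold (limma, adjusted p = 0.507 blocked). The difference between the paralogs was not tested.

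cep135.L encodes a protein that links the cartwheel, the symmetric scaffold of a new centriole, to the wall. It read 58.4 and 133.8 with ICD alone, against 210.5 and 316.8 with MCI-HGR added, 3.6-fold higher within number 1 and 2.37-fold within number 2. Its log2 difference of 1.55 became 0.95 without ICD replicate 1 and 2.14 without ICD replicate 2. stil.L, the cartwheel partner that activates the duplication kinase, read 272 and 263.8 against 731.4 and 590.4 (limma, adjusted p = 4.48e-10 blocked, 0.209 unblocked). Both of its MCI-HGR values lay far above both ICD values, with folds of 2.69 within number 1 and 2.24 within number 2.

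Genes needed for centriole elongation, cep120.L and spice1.L, rose too. cep120.L read 323 and 166.3 with ICD alone, against 581.7 and 492.3 with MCI-HGR added, and spice1.L read 64.3 and 52.5 against 148.3 and 110.6. Neither overlapped between groups, and their folds over both numbers were 2.31 and 2.2. cep97.L, whose product caps the growing end of a centriole with its partner CP110, rose from 102.3 and 101.5 to 195.1 and 208.2, 1.98-fold with little spread between replicates (limma, adjusted p = 2.36e-05 blocked, 0.493 unblocked).

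cep70.L, of a protein that binds gamma-tubulin and organises microtubules, read 105.5 and 111.2 with ICD alone, against 267.2 and 300.4 with MCI-HGR added, 2.53-fold and 2.7-fold within numbers 1 and 2. cep44.L, whose product binds the inner centriole wall, read 233.3 and 180.1 against 424.7 and 294.3, a rise of 1.72-fold. A second probe set of cep44.L was 1.37-fold higher and did not pass over all probe sets (limma, adjusted p = 0.159 blocked). cep85.S, an activator of the duplication kinase together with STIL, stood just inside the threshold at 342.6 and 307.4 against 415.1 and 415.6 (limma, adjusted p = 0.0443 blocked), and its call was lost with arrays centred on their medians (0.0551), after quantile normalization (0.141), with no filter on low signals (0.0643) and with the mean over probe sets of each gene (0.0695). cep85.L, read by a probe set marked as able to bind other transcripts, read 21.1 and 25.4 against 38.3 and 20.8 and did not pass. Its other probe set, which lacks that mark, read 14.9 and 12.1 against 36.9 and 23.8, 2.21-fold higher, and missed the threshold over all probe sets (limma, adjusted p = 0.0539 blocked). cep63.L, of a partner of CEP152 at the mother centriole, read 282.1 and 200.7 against 290.2 and 123.1 and did not pass, with a log2 difference of -0.33 ± 0.48 (SE, n = 2 per group).

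**Figure D2:**
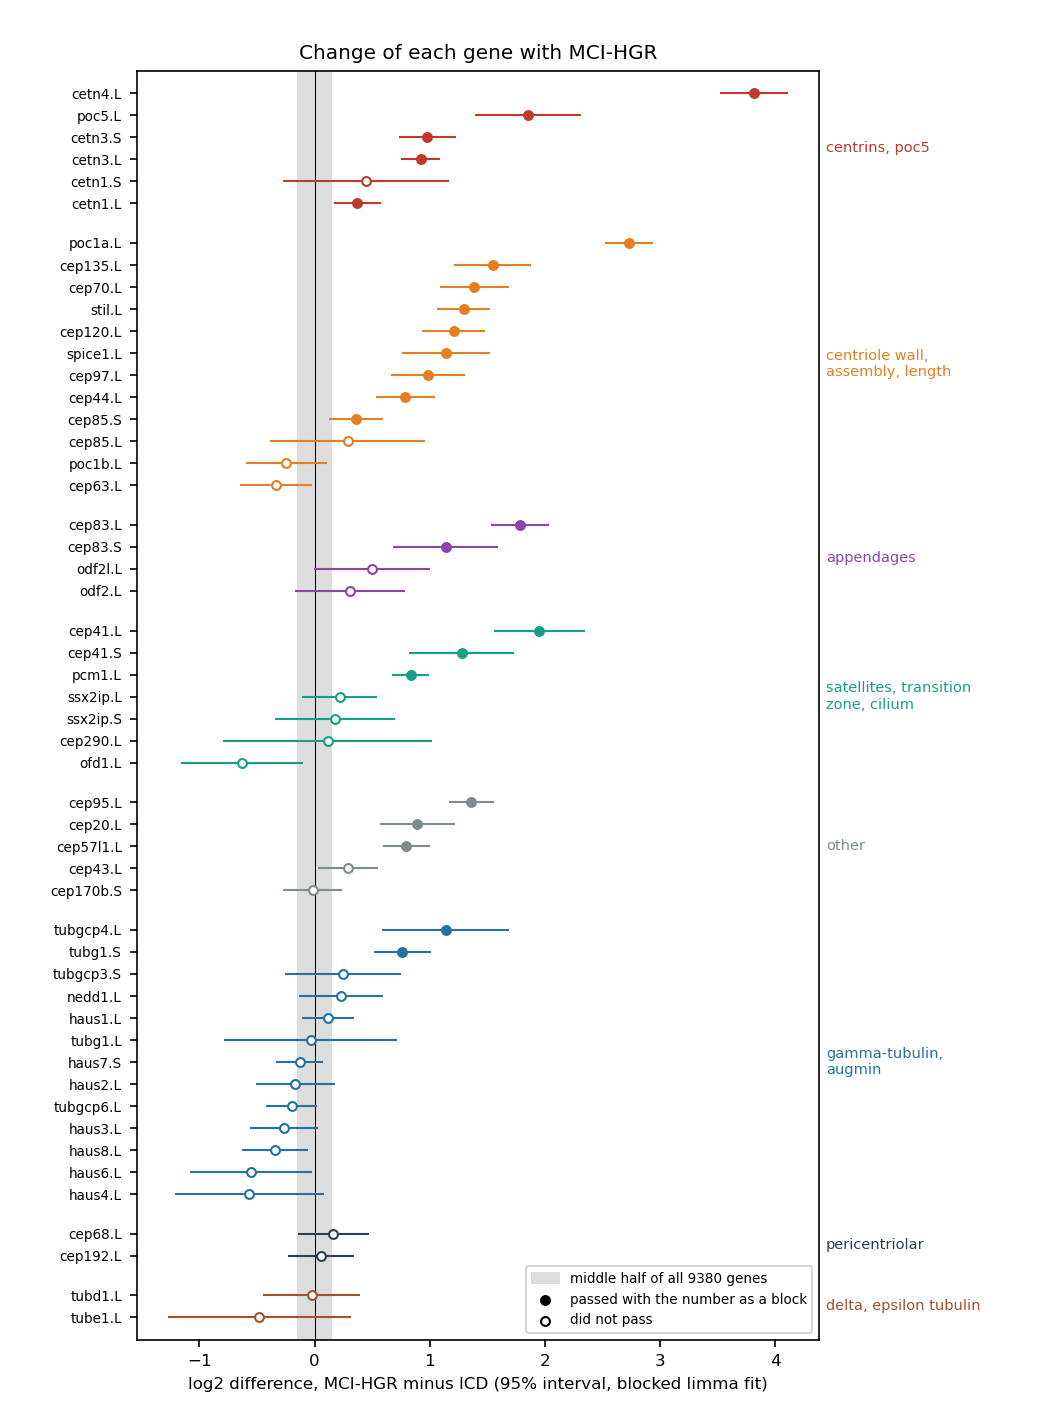
Log2 difference of each gene, MCI-HGR minus ICD, with the 95% interval of limma's blocked fit, grouped by role; filled points passed and open points did not. The grey band is the interquartile range of all 9380 genes, from -0.14 to 0.14. Centrins and centriole wall genes reach from 3.81 down to -0.33, and the augmin genes lie between 0.11 and -0.57.

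Appendages are the projections by which a mother centriole docks to the membrane and anchors microtubules. Of 4 tested genes 2 rose, both copies of cep83, which builds the base of the distal appendages. cep83.L read 252.5 and 126.4 with ICD alone, against 767.9 and 493.3 with MCI-HGR added (limma, adjusted p = 2.8e-12 blocked, 0.5 unblocked). Its rise was 3.04-fold within number 1 and 3.9-fold within number 2. cep83.S read 85.2 and 33.7 against 125.8 and 110.5, and its fold differed more between the numbers, 1.48 and 3.28. The log2 difference of cep83.S, 1.14 over both, was 1.81 without ICD replicate 1 and 0.47 without ICD replicate 2.

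odf2.L, a gene of the subdistal appendages, and odf2l.L did not pass. odf2.L read 37.9 and 60.7 with ICD alone, against 56.6 and 61.9 with MCI-HGR added, and its relative odf2l.L read 86.6 and 45 against 72.9 and 106.8. The groups overlapped for both. On the log2 scale odf2.L differed by 0.30 ± 0.37 and odf2l.L by 0.50 ± 0.45 (unblocked SE, n = 2 per group). cep128.L, also of the subdistal appendages, was below the highest tag control on all 4 arrays, between 1.4 and 8.1, and was not tested.

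Centriolar satellites are granules that carry proteins to the centrosome. Of 7 genes of satellites, the transition zone and the cilium, 3 rose: pcm1.L and both copies of cep41. pcm1.L, the satellite scaffold, read 1045.8 and 1138 with ICD alone and 1887.7 and 1998.4 when MCI-HGR was present. Its change was nearly the same within the numbers, 1.81-fold and 1.76-fold. The log2 difference was 0.83 ± 0.15 (unblocked SE, n = 2 per group), with limma's adjusted p = 3.2e-09 blocked and 0.282 unblocked. cep41, a ciliary protein needed for the glutamylation of axonemal tubulin, had larger changes. cep41.L read 145.4 and 52.8 against 354.8 and 323.5, and its log2 difference of 1.95 was 2.68 without ICD replicate 1 and 1.22 without ICD replicate 2. A second probe set of cep41.L was 2.59-fold higher. cep41.S read 51 and 30.1 against 100 and 90.2, 1.96-fold and 3-fold within the numbers.

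The other 4 genes of this group did not pass. ofd1.L, which restrains centriole length and sits at satellites, had the lowest log2 difference of all 51 genes. Its signals were 45.1 and 60.3 with ICD alone, against 23 and 49.3 with MCI-HGR added. The groups overlapped, and the log2 difference was -0.63 ± 0.49 (SE, n = 2 per group; limma, adjusted p = 0.152 blocked). ssx2ip.L and ssx2ip.S, of a satellite protein that anchors microtubules, had log2 differences of 0.22 and 0.18. ssx2ip.L read 135.7 and 135.1 against 177.8 and 139.1, and ssx2ip.S read 34.6 and 41.2 against 38.3 and 47.6, so the .S copy overlapped between groups. cep290.L, the transition zone gatekeeper, was close to the tag controls, at 14.3 and 8.7 against 14.6 and 10, and no statement about its change can rest on these values.

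A further 5 genes were not named in any role group, since the groups were set by symbol, and 3 of them rose. cep95.L read 520.1 and 356.8 with ICD alone, against 1265.3 and 965.9 with MCI-HGR added, 2.43-fold and 2.71-fold higher within numbers 1 and 2 (limma, adjusted p = 5.94e-12 blocked, 0.329 unblocked). cep20.L and cep43.L belong to a family of centrosomal and satellite proteins named for the human FOP protein. cep20.L rose from 209.5 and 100.3 to 293.1 and 245.9, whereas cep43.L, at 270.5 and 218.4 against 307 and 286.4, missed the threshold (limma, adjusted p = 0.196 blocked). Whether the changes of cep20.L and cep43.L differ was not tested. cep57l1.L, a relative of the centrosomal cep57, rose from 481.8 and 392.4 to 857 and 664.3, 1.74-fold. cep170b.S read 287.1 and 265.2 against 279.8 and 266.1, with a 95% interval of -0.27 to 0.24 on the log2 scale in the blocked fit.

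**Figure D3:**
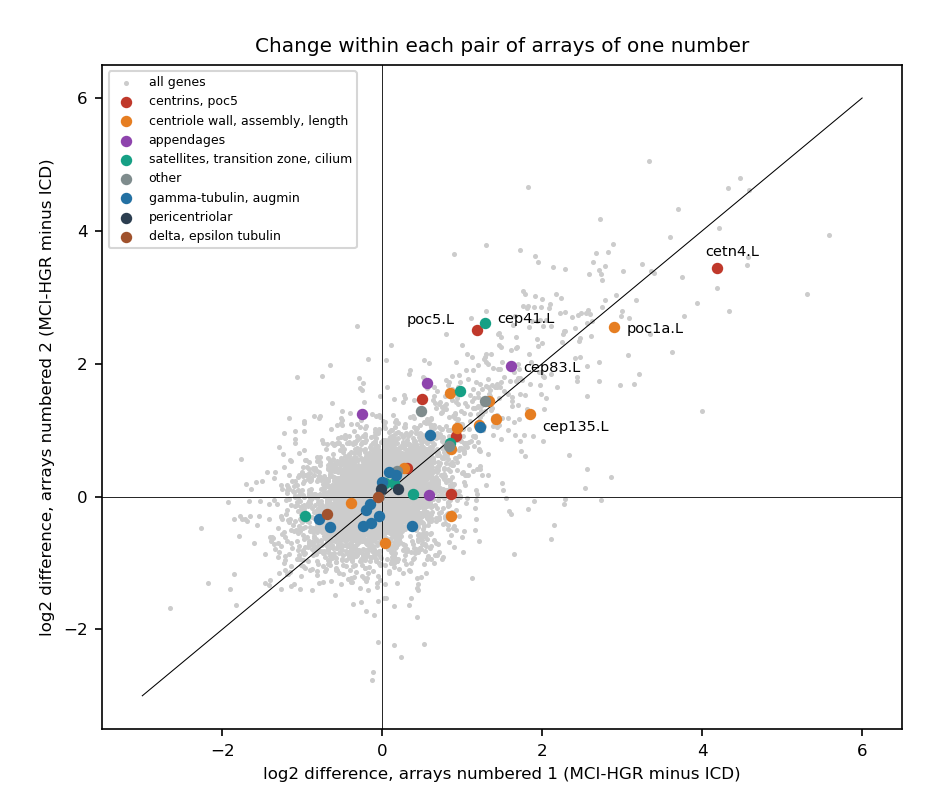
Log2 difference within the arrays numbered 1 (horizontal) against that within the arrays numbered 2 (vertical), for all 9380 genes in grey and the 51 genes in the colour of their role; the line marks equal change. The 24 genes that rose lie above 0 on both axes, and 14 of them lie above the line, among them poc5.L and cep41.L.

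Gamma-tubulin starts microtubules from a ring of gamma-tubulin complex proteins, which NEDD1 tethers to the centrosome and augmin tethers to existing microtubules in the spindle. Of the 13 tested genes of this machinery 2 rose, tubg1.S and tubgcp4.L, and 0 fell. The median log2 difference was -0.13 over all 13, 0.24 over the 6 outside augmin and -0.27 over the 7 augmin genes. Of the 6 outside augmin, 4 were higher with MCI-HGR within both array numbers and 1 was lower, where 32.7% and 29.0% of all genes were so. Of those 4, tubgcp3.S and nedd1.L turned sign without ICD replicate 2, to -0.12 and -0.0028. tubg1.S, a gamma-tubulin gene, read 331.8 and 211.3 with ICD alone, against 502 and 401.6 with MCI-HGR added, 1.51-fold and 1.9-fold higher within the numbers (limma, adjusted p = 2.31e-05 blocked). Its second probe set was 1.37-fold higher and did not pass over all probe sets (limma, adjusted p = 0.185 blocked). tubgcp4.L, of the ring complex, read 29.5 and 20.2 against 69 and 41.7, a rise of 2.2-fold (limma, adjusted p = 0.00368 blocked) from signals not far above the tag controls. The core and ring subunit genes tubgcp3.S and tubgcp6.L did not pass, with log2 differences of 0.25 and -0.20; tubgcp3.S read 53.3 and 32.1 against 60.1 and 40. tubgcp6.L read 474.4 and 490.9 against 412.5 and 427.7, 0.87 of the ICD level within each number. tubgcp2.L was near background, between 7.1 and 13.4, and was not tested. nedd1.L read 109.6 and 79.7 against 116.4 and 102.8 and did not pass.

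Of the 7 tested augmin genes 0 passed in either direction, and at an unadjusted p of 0.05 with the block 0 were higher and 2 lower, haus6.L and haus8.L, where 10.8% and 8.20% of all genes stood. The values of haus2.L, haus3.L, haus4.L, haus6.L, haus7.S and haus8.L were lower with MCI-HGR within both array numbers, 6 of 7 where 29.0% of all genes were so. haus3.L read 202.8 and 211.2 with ICD alone, against 184.6 and 160.4 with MCI-HGR added. haus6.L read 55.9 and 41.5 against 35.6 and 30.2, and a second, dimmer probe set had a log2 difference of -0.51. The groups overlapped for haus8.L, at 287.4 and 166.2 against 244.1 and 121.7, for haus2.L, at 141.5 and 109.7 against 137.2 and 89.7, and for haus4.L, at 46.7 and 19.8 against 27 and 15.6. haus7.S, at 770 and 552.9 against 690.3 and 514, and haus1.L, at 469.6 and 368.2 against 469.8 and 429.6, did not pass. The median log2 difference of the 7 genes was -0.27, with -0.16 within number 1 and -0.34 within number 2. With 1 array left out, which sets arrays of unequal numbers against each other, it came to 0.052 when ICD replicate 1 was dropped and to 0.081 when MCI-HGR replicate 2 was. The highest 95% bound among them in the blocked fit was 0.34, for haus1.L.

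The pericentriolar and tubulin genes outside the ring complex did not pass. cep192.L, the scaffold that recruits gamma-tubulin and the mitotic kinases, read 202 and 190.3 against 200.6 and 206.7, with a 95% interval of -0.23 to 0.34 on the log2 scale in the blocked fit. cep68.L, of the linker between centrioles, read 141 and 150.6 against 162.1 and 163.6 by its brighter probe set, and its dimmer one had a log2 difference of -0.71. tubd1.L and tube1.L encode delta- and epsilon-tubulin, which are needed for the triplet microtubules of centrioles. tubd1.L read 88.3 and 55.1 with ICD alone, against 85.3 and 55 with MCI-HGR added. The arrays of one number were alike for tubd1.L and those of one group were not. tube1.L lay near the tag controls, at 17.1 and 19.9 against 10.6 and 16.5.

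Both copies were tested for 7 genes. Among all 1609 homeolog pairs with both copies tested, limma found 0% whose copies responded differently, with or without the block. At an unadjusted p of 0.05, 39 pairs stood without the block and 218 with it. Of these 7 pairs, 0 and 1 did, the latter being cep41. Its .L copy exceeded its .S copy by 0.67 ± 0.32 in log2 difference (unblocked SE, n = 2 per group), with adjusted p = 0.356 in limma's blocked fit. For cep83 the .L copy exceeded the .S copy by 0.65 ± 0.29. The tubg1 copies stood apart the other way, by -0.80 ± 0.40, with tubg1.L dim at 19.5 and 18.3 against 25.2 and 13.5. The blocked 95% interval of that difference, -1.82 to 0.23, included 0. For cetn3, whose copies both rose, it was -0.058 ± 0.32, and for cep85, cetn1 and ssx2ip it lay between -0.074 and 0.039.

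**Figure D4:**
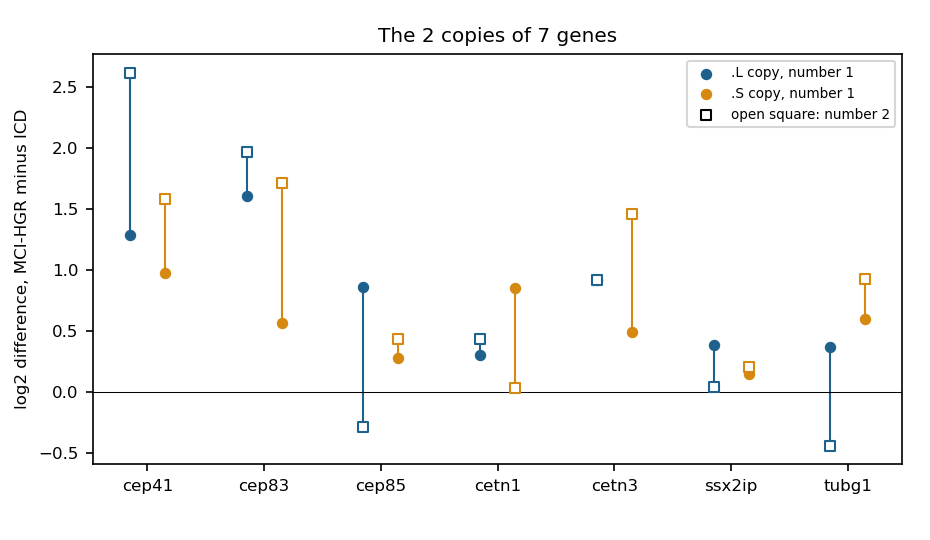
Log2 difference, MCI-HGR minus ICD, of the .L copy (blue) and the .S copy (orange) of 7 genes, with filled circles for arrays numbered 1 and open squares for number 2, joined by a line. For cep83, the .L and .S values are 1.60 and 0.56 within number 1 and 1.96 and 1.71 within number 2. The values of cetn3.L within the numbers, 0.92 and 0.92, coincide.

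Other genes of the pathway were counted from short lists, to be read against the 6.72% of all 9380 genes that rose and the 3.32% that fell. In the order below, 6 of 9, 11 of 15 and 2 of 15 listed names had a probe set. On the list of centriole duplication and the deuterosome, the platform on which many centrioles form, 6 of 7 tested genes rose and 0 fell, with a median log2 difference of 2.29. That list includes cep152 and shares ccno with the multiciliated markers. On the list of gamma-tubulin recruitment and the spindle pole, 2 of 14 rose and 0 fell, with a median of 0.028. Those that rose were nek2.S, a centrosomal kinase, and mzt1.S, of a small subunit of the gamma-tubulin ring complex, which read 789.9 and 553.6 with ICD alone, against 1098.1 and 893.5 with MCI-HGR added. On the list of other appendage and rootlet genes only 2 were tested, and cby1.S, of a basal body protein, rose from 99.1 and 123.5 to 304.5 and 349.6. pibf1.S, of a satellite protein, read 34.6 and 40.7 against 40.2 and 45.7 and did not pass.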

How the data were processed

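Per the submitters' processing notes the authors made the deposited signal intensity values with MAS5, on a linear scale; its version and scaling target are not known here. Of 32539 probe sets besides 96 controls, 15495 had 1 platform symbol, 279 several and 16765 none here. log2 was taken, the lowest 25% by mean log2 signal were removed, and the brightest probe set stood for each of 9380 genes. limma 3.58.1 in R 4.3.3 (lmFit, eBayes with an intensity trend, two-sided, Benjamini-Hochberg over all genes) compared the groups. The SE printed is limma's moderated SE of the unblocked fit, in which a gene's variance is drawn toward that of genes of like signal. It is not the SE of the gene's own arrays alone. The blocked fit has 1 residual degree of freedom and a prior of 26.2, or 2.42 without the trend. The labels do not say what a shared array number means. The log2 difference between the arrays numbered 1 and 2 correlated between the ICD and MCI-HGR groups at r = 0.79 across genes. Genes are not independent replicates. Homeolog pairs were tested on log2 .L minus .S signals. Background is the highest of 17 tag controls of each array, 9.2 to 13. Genes given array by array include all that the rule named (the 12 largest changes, the largest and smallest in each role group, every gene that fell and every pair whose copies differed, of which there was 0), and the others were added with their values known. The members, roles and lists were chosen with earlier results of these data known. No sequences are printed, since no sequence table was used here.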

Additional observations from a re-analysis of the deposited data

How the results depend on the processing

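With the replicate number as a block, 24 of the 51 genes rose, against 0 without it. Leaving out 1 array in turn, without the block, called 0 to 4 of them: 4 without ICD replicate 1 (cetn4.L, poc1a.L, cep41.L and cep83.L), 2 without ICD replicate 2 (cetn4.L and poc1a.L) and 0 without either MCI-HGR array, where the lone array of a group is assumed to vary like the others. Such a fit cannot be made with the block, which would leave no residual degrees of freedom. Within the blocked fit, 22 to 24 genes rose under other scaling, filters and probe set choices, 21 of them in all 6 settings with the trend, and 1 without the trend. 0 fell under any of these. The size of the blocked p-values depended on the setting too. With arrays centred on their medians, limma's adjusted p went from 5.58e-18 to 4.99e-07 for cetn4.L. It went from 4.23e-18 to 1.7e-07 for poc1a.L and from 2.8e-12 to 6.24e-06 for cep83.L. The blocked calls over all 9380 genes, higher and lower, numbered 630 and 311, against 38 and 0 without the trend and 564 and 187 with arrays centred on their medians. The median log2 difference was 0.38 with arrays centred on their medians, 0.32 after quantile normalization, 0.30 with no filter on low signals and 0.63 with the lowest 50% of probe sets removed, which leaves 42 of these genes; it ran from 0.30 to 0.51 with 1 array left out. For the 24 genes that rose no left-out array could turn the sign, since both MCI-HGR arrays lay above both ICD arrays for each. Leaving out 1 array turned the sign of the log2 difference for 15 of the 27 genes that did not rise. Of those named by the rule, other settings or left-out arrays turned cep170b.S (0.013 with centring; -0.073 to 0.041 with 1 array left out), tubd1.L (0.0027 with centring; -0.37 to 0.31), tubg1.L (0.034 after quantile normalization; -0.48 to 0.42), cep290.L (-0.24 to 0.47), odf2.L (-0.036 to 0.64) and cep68.L (-0.27 with the mean over probe sets). That mean also turned cetn1.L, which had risen, to -0.15; its probe sets disagree. The number of homeolog pairs called as differing was 0 of 7 under every alternative run with all arrays. Among all 1609 pairs, limma's smallest adjusted p was 0.908 without the block and 0.15 with it. A count of 0 therefore does not show that the copies respond alike. The other causes were not tested.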
